A study of Mus musculus with 4 samples.

Results

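Fibroblast growth factors (FGFs), their receptors and the genes that their signalling switches on were followed in whole mouse embryos that lack Nr6a1, a nuclear receptor without a known ligand that the labels call by its older name, Gcnf. The genes were taken from a fixed list of 37 symbols, and a gene was measured where the array annotation gave at least 1 probe set to that symbol alone. This held for 35 of the 37 genes, among 18193 genes measured in all, and they were covered by 79 probe sets. Frs2, the adaptor that docks to activated FGF receptors, had no such probe set, and the 3 probe sets of the ETS factor Etv1 are shared with another symbol and were not used. Where a gene had several probe sets, the one with the highest mean signal over the 4 arrays stood for it.

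The series holds 4 arrays, 2 from wildtype embryos (labelled wt) and 2 from homozygous mutants (labelled Gcnf-/-, written Nr6a1-/- here), all at embryonic day 9.0 (E9.0) by the labels. RNA came from whole embryos, so that tissues were not separated, and no treatment, Cre line or further allele was named for either group. The study's methods use a window that runs past this stage and say that RNA was taken from each embryo, and neither they nor the labels state litter or somite number. Mutant embryos are known to develop slowly and not to turn, so that stage and genotype cannot be told apart. The comparison asks which members of the pathway were higher or lower when the receptor is lost. In whole embryos, fewer cells of a type and less RNA per cell cannot be told apart.

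FGFs are secreted proteins that bind receptor tyrosine kinases together with heparan sulphate, and signal largely through the RAS and ERK kinases. ERK signalling switches on genes that dampen the pathway again, such as the Sprouty, Spred and Dusp genes, together with the ETS transcription factors Etv4 and Etv5, so that this group is widely read as a record of FGF activity. In the early embryo FGFs are known for holding the tailbud and presomitic mesoderm in an immature state, for patterning around the midbrain-hindbrain boundary, and for limb, heart and somite development.

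The largest differences in the pathway were in 3 ligands, Fgf18 and Fgf14 below and Fgf15 above wildtype, of which Fgf18 passed the test. Of 10 feedback genes 9 lay below wildtype and 2 passed, while the receptors and the best-known axial ligand, Fgf8, stood near wildtype. Fgf18 was the only member called, meaning an adjusted p of 0.05 or lower with a change of at least 2-fold, and it was 2.11-fold lower in mutants. Spry1 and Etv5 fell too, past the same adjusted p but by less than 2-fold. By limma's test 0 members were higher at this threshold and 1, Fgf15, was higher at an unadjusted p under 0.05, by 1.96-fold. Among all genes, 0.121% were called lower and 0.423% called higher, and without regard to size 0.374% passed as lower and 1.02% as higher. Of the 35 members, 22 lay below and 13 above wildtype. Their median difference, mutant minus wildtype on the log2 scale, was -0.09, beside -0.01 over all genes. Both mutants lay below both wildtype embryos for 18 members and above them for 6, where 30.4% and 26.2% of all genes did so. At an unadjusted p under 0.05, 13 members were lower and 1 was higher, against 11.9% of genes lower and 11.9% higher. In the plot of log2 fold changes by role, the feedback genes form a group between -0.65 and -0.35 from which only Spry4, Spred2 and Etv4 stand apart.

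**Figure D1:**
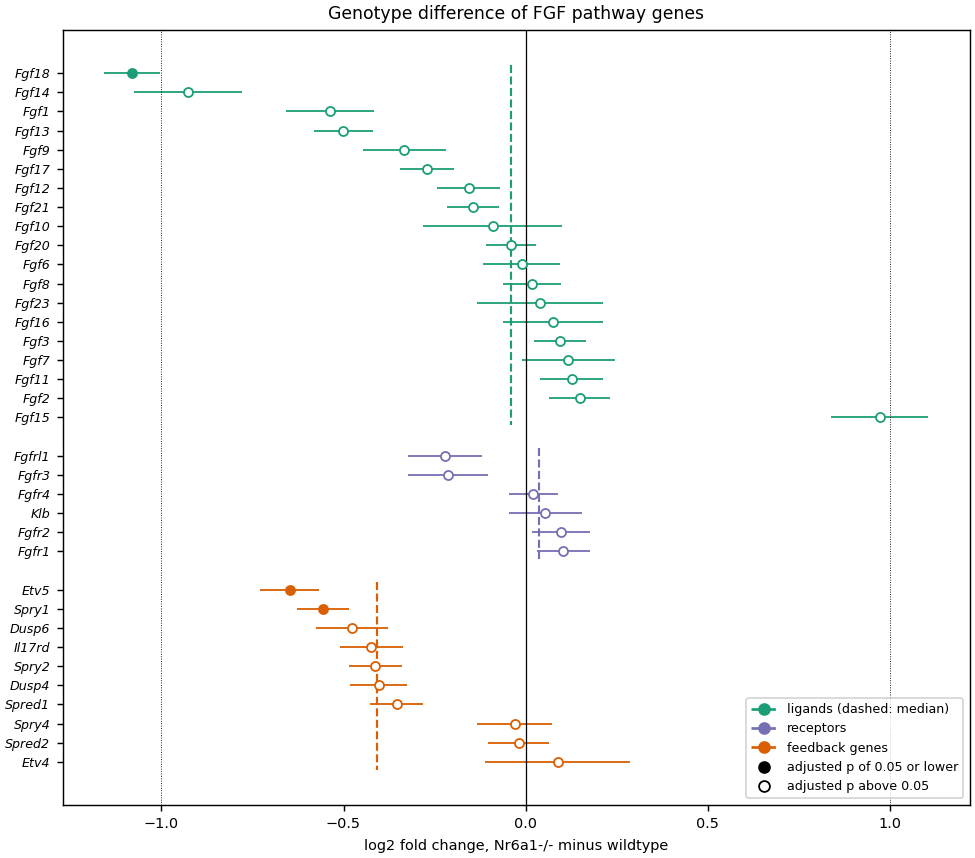
The horizontal axis gives, for every measured FGF pathway gene, the log2 fold change of Nr6a1-/- over wildtype (bars, moderated standard error from limma, n = 2 embryos per genotype), with genes grouped by role on the vertical axis. Filled points had an adjusted p of 0.05 or lower, dashed lines are group medians of -0.04 for ligands, 0.04 for receptors and -0.41 for feedback genes, and dotted lines mark 2-fold.

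The arrays themselves carry some features that move with genotype. Probe sets for 18S ribosomal RNA read higher in mutants by 1.06 on the log2 scale, and wildtype replicate 1 was the only female by its Xist signal (13.11 against 6.44 to 6.68). Nr6a1 did not check the genotype labels, since its 5 probe sets lay above wildtype by 0.05 to 0.56, at adjusted p from 0.106 to 0.796, and where they sit relative to the deleted part is not known here. The part of these features in the values below was not tested.

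**Figure D2:**
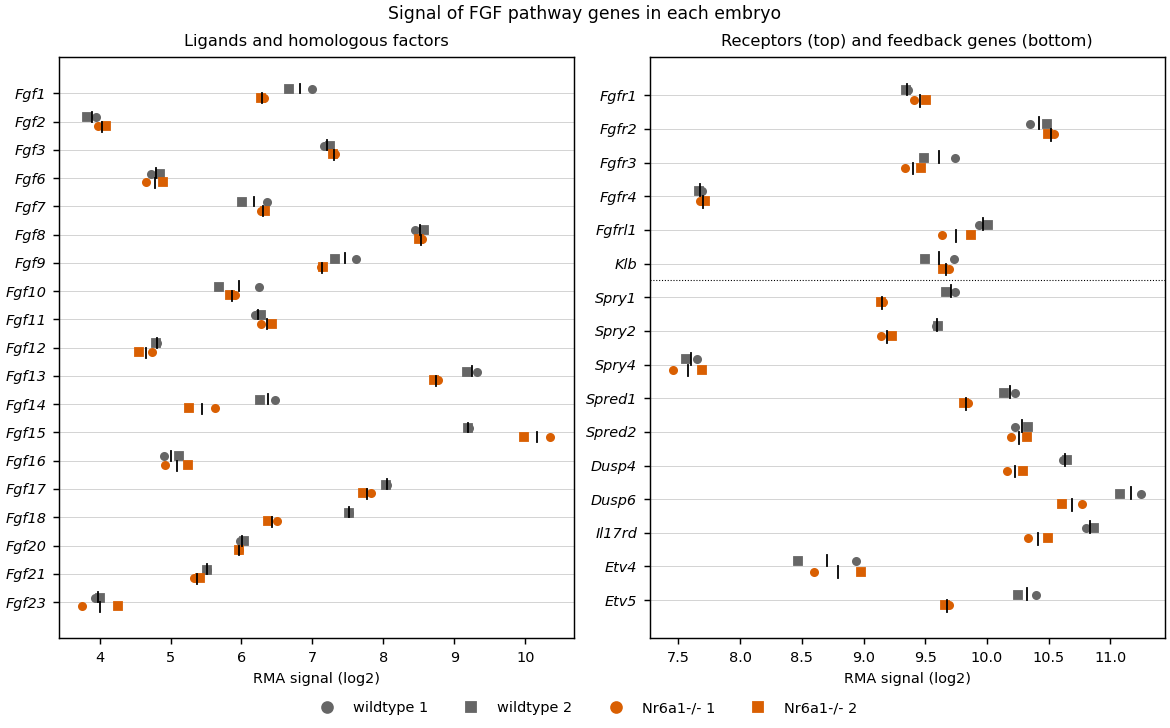
RMA log2 signal of each embryo (horizontal axis) for the 19 measured ligands and homologous factors (left) and for the 6 receptors and 10 feedback genes (right); grey is wildtype, orange is Nr6a1-/-, circles and squares are replicates 1 and 2, and vertical ticks are group means. The wildtype points of Fgf18 coincide at 7.51, well above the mutants at 6.49 and 6.37, whereas those of Fgf8 overlap.

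Of the ligands, the Fgf8 subfamily, whose members Fgf8, Fgf17 and Fgf18 share receptors and act together around the midbrain-hindbrain boundary and in mesoderm, differed among themselves. Fgf18, a ligand known for skeletal and lung development, read 7.51 and 7.51 in wildtype and 6.49 and 6.37 in mutants on the log2 scale. The mutants lay about 1 log2 unit below the wildtype embryos, and the embryos of a genotype were close to each other. Both mutants lay under 6.84, the median signal of all probe sets, and both wildtype embryos above it. Fgf18 fell by 1.08 ± 0.08 (limma's moderated SE with 2 embryos in each group, adjusted p = 0.0166). The wildtype values differ by less than 0.0001, which was so for 231 of the 45037 probe sets tested, so that the SE rests mainly on the spread shared across probe sets. Fgf18 is measured by 1 probe set, and its call is lost without any single array, at an adjusted p from 0.115 without wildtype replicate 2 to 0.201 without wildtype replicate 1.

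Fgf8, the main FGF of the tailbud, the midbrain-hindbrain boundary and the pharyngeal arches, read 8.44 and 8.58 in wildtype and 8.55 and 8.51 in mutants. These ranges overlap. Its log2 fold change was 0.02, with a 95% interval from -0.19 to 0.22, which leaves room for a change of about that size either way.

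Fgf17, a ligand of the boundary and the tailbud, lay between its relatives in fold change, with 8.05 and 8.04 in wildtype and 7.83 and 7.72 in mutants. Both mutants were lower and its second probe set pointed the same way at -0.38, but at -0.27 ± 0.07 it did not pass (adjusted p = 0.147).

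Fgf15, a target of hedgehog signalling in the neural tube and the mouse counterpart of human FGF19, had the largest difference in the other direction. It read 9.21 and 9.18 in wildtype and 10.35 and 9.98 in mutants. The mutants were both higher, and differed from each other by more than the wildtype embryos did. Its log2 fold change of 0.97 ± 0.13 just missed the threshold (adjusted p = 0.0541). It did pass with repeated quantile normalisation (adjusted p = 0.0354), median centring (0.0478) and an intensity trend (0.0135). It also passed among brighter probe sets (0.0249) and with the mean over probe sets of each gene (0.0310), short of 2-fold in all of these. Over the whole table, 2694 probe sets passed with the trend and 2395 among brighter ones, against 439 in the main fit. Fgf15 is measured by 1 probe set. Its fold change was the same with the trend, among brighter probe sets and as a probe set mean. Those passes of Fgf15 are therefore not separate support. With 1 array left out its adjusted p ran from 0.153 to 0.330.

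Among the other secreted ligands, Fgf1 and Fgf9 lay below wildtype without passing. Fgf1, which binds all FGF receptors, read 6.99 and 6.67 in wildtype and 6.31 and 6.27 in mutants, a log2 fold change of -0.54 ± 0.12 (adjusted p = 0.111). Its next brightest probe set gave -0.54 as well, and all of them lay under the median signal of all probe sets. Fgf9, a ligand made by epithelia and mesothelia, read 7.61 and 7.32 against 7.12 and 7.14, or -0.33 ± 0.11 (adjusted p = 0.203), with -0.44 at its other probe set. At the brightest probe set of both genes the mutants agreed closely while the wildtype embryos were apart, with replicate 1 the higher. Their next brightest probe sets did not repeat this. That of Fgf1 read 5.83 and 5.42 in mutants, and that of Fgf9 read 6.18 and 6.25 in wildtype.

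The other secreted ligands were within 0.15 of wildtype. Fgf10, the limb and lung ligand, was at -0.09, and its wildtype embryos, at 6.25 and 5.68, spanned both mutants. Fgf3, which acts in inner ear and tail development, was at 0.09, with its 3 probe sets between 0.09 and 0.17. Fgf7 at 0.12, Fgf2 at 0.15, Fgf16 at 0.08, Fgf6 at -0.01, Fgf20 at -0.04 and the endocrine ligands Fgf21 at -0.14 and Fgf23 at 0.04 made up the rest. All but Fgf3, 8 ligands, lay under that median, where unspecific hybridisation makes up more of the value and fold changes are understated. In all, 12 of the 19 ligands were this dim, against 0 of the 16 receptors and feedback genes.

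The intracellular FGF homologous factors, Fgf11 to Fgf14, are related to FGFs by sequence but are not secreted, and are known for binding voltage-gated sodium channels in excitable cells. Fgf13 and Fgf14 were lower without passing, and Fgf11 and Fgf12 stood at 0.13 and -0.16. Fgf14 read 6.47 and 6.26 in wildtype and 5.63 and 5.25 in mutants, or -0.93 ± 0.15 (adjusted p = 0.0679). Its 4 probe sets disagreed, at -0.93, -0.67, -0.18 and 0.10, with the dimmer pair nearer to 0, and all lay under the median signal. Fgf13 read 9.31 and 9.18 in wildtype and 8.77 and 8.71 in mutants, or -0.50 ± 0.08 (adjusted p = 0.0690). Fgf13 is X-linked, and the single female embryo had the highest of its 4 values, with the male wildtype embryo still above both male mutants. Its other probe set, which was much dimmer, gave -0.04. X-linked Fgf16 was dim, and its groups overlap.

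The receptors were close to wildtype, and 0 of 6 had an unadjusted p under 0.05 in limma. Both mutants lay below both wildtype embryos for Fgfr3 and Fgfrl1 and above them for Fgfr1 and Fgfr2, each by less than 0.25. Fgfr1, the main receptor of mesoderm, read 9.36 and 9.34 in wildtype and 9.41 and 9.50 in mutants, with a 95% interval of its log2 fold change from -0.08 to 0.29. Fgfr2, prominent in epithelia and neural tissue, was at 0.10 (-0.11 to 0.30), and all 3 probe sets of each of these receptors lay above 0, at 0.02 to 0.16. Fgfr3 was at -0.21 by its brighter probe set (-0.50 to 0.07) and at 0.23 by the other, so that its direction is not settled. Fgfr4, a receptor of somite muscle and endoderm, was at 0.02 (-0.15 to 0.19), with 5 probe sets between -0.04 and 0.15. Fgfrl1, a receptor without a kinase domain, was at -0.22 by both probe sets. Klb, the co-receptor beta-Klotho of the endocrine ligands, was at 0.05 by its bright probe set. Its other probe set, which was much dimmer, gave -0.28 with both mutants below both wildtype embryos (limma, unadjusted p = 0.0477, adjusted p = 0.243). The intervals of the 4 kinases leave out a change of 2-fold, the widest being that of Fgfr3.

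Of the 10 feedback genes measured, 9 lay below wildtype, with a median of -0.41, and for 7 of them both mutants lay below both wildtype embryos: Spry1, Spry2, Spred1, Dusp4, Dusp6, Il17rd and Etv5. Each of these 7 had an unadjusted p under 0.05. All 10 are bright, and among genes at or above the median signal 36.1% had both mutants lower and 15.1% were lower at an unadjusted p under 0.05. With 1 array left out, the median of all 10 lay between -0.43 and -0.35. In a fit to brighter probe sets alone, all 7 passed, as did Fgf13 and Fgf18 below and Fgf15 above wildtype, or 10 of 23 members, while 5.51% of genes passed as lower and 6.51% as higher. Fgf18 entered this fit only through its wildtype values, as its mutants, at 6.49 and 6.37, lie under the limit of 6.84. Its pass there therefore adds no support. With an intensity trend in the variance the same 10 and Fgf14 passed, 11 of 35, while 4.16% of genes passed as lower and 4.64% as higher.

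Spry1 encodes an inhibitor of receptor tyrosine kinase signalling that FGF induces. It read 9.74 and 9.67 in wildtype and 9.16 and 9.14 in mutants. The gap between genotypes was several times the gap between embryos of a genotype, and Spry1 fell by 0.56 ± 0.07 (adjusted p = 0.0493). Etv5, an ETS factor that is among the nearest targets of FGF signalling, read 10.40 and 10.25 in wildtype and 9.69 and 9.66 in mutants, and fell by 0.65 ± 0.08 (adjusted p = 0.0487). Its other probe sets gave -0.67 and -0.32, and as the mean of all 3 it no longer passed (-0.55, adjusted p = 0.0514). Without any single array neither gene passed (adjusted p from 0.164 to 0.318 for Spry1 and from 0.142 to 0.291 for Etv5).

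The phosphatase genes lay below wildtype by a like amount without passing. Dusp6, a phosphatase that removes the activating phosphates from ERK, read 11.25 and 11.08 in wildtype and 10.77 and 10.61 in mutants, or -0.48 ± 0.10 (adjusted p = 0.101). Dusp4, a nuclear phosphatase of the same family, read 10.62 and 10.65 against 10.16 and 10.30, or -0.40 ± 0.08 (adjusted p = 0.0916). In both, the mutants were lower with no overlap.

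Among the membrane-associated inhibitors, Spry2, Il17rd and Spred1 gave differences of like size, also without passing. Spry2, the close relative of Spry1, read 9.59 and 9.61 in wildtype and 9.14 and 9.23 in mutants, or -0.41 ± 0.07 (adjusted p = 0.0809). Il17rd, also called Sef, a membrane protein that holds back FGF signalling, read 10.80 and 10.87 against 10.33 and 10.49, or -0.42 ± 0.09 (adjusted p = 0.0958). The other probe sets of Spry2 and Il17rd, which were much dimmer, gave smaller differences of -0.19 and -0.11. Spred1, a Sprouty-related inhibitor of RAS activation, read 10.23 and 10.14 against 9.85 and 9.81, or -0.35 ± 0.07 (adjusted p = 0.0999). All 8 of its probe sets lay below wildtype, from -0.51 to -0.14.

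The 3 feedback genes outside this group were Spry4, Spred2 and Etv4. Spry4 was at -0.03, with its mutants, at 7.46 and 7.69, on either side of the wildtype embryos. Its other probe sets were between 0.00 and 0.08. Spred2 was at -0.02, with 5 probe sets from -0.14 to 0.40. The one at 0.40 was its next brightest, with both mutants above both wildtype embryos (limma, unadjusted p = 0.00914, adjusted p = 0.124). Etv4, the near relative of Etv5, had the widest spread between embryos of a genotype of all 10, with 8.94 and 8.47 in wildtype and 8.60 and 8.98 in mutants, and a log2 fold change of 0.09 ± 0.20. Embryos of the same genotype differed here by more than the genotypes did.

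**Figure D3:**
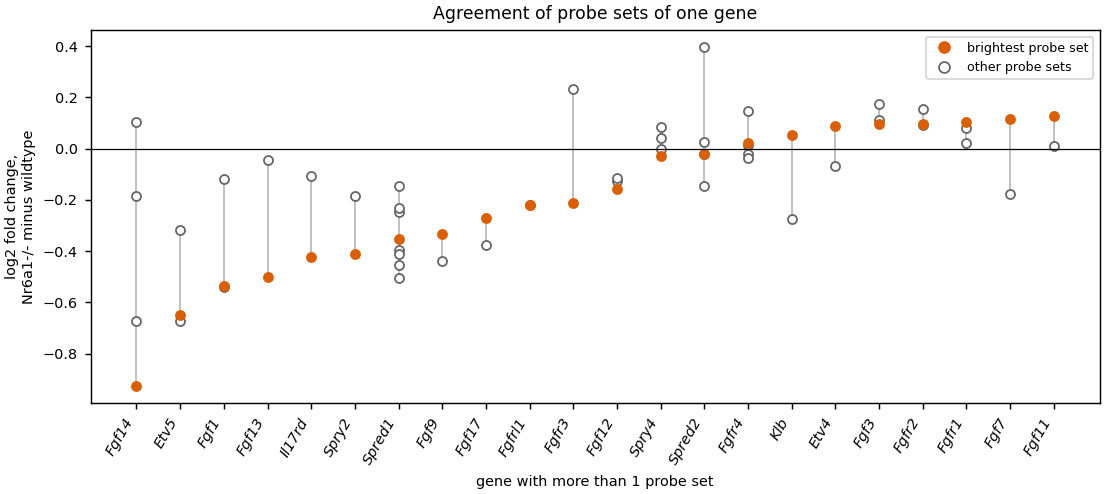
Log2 fold change (vertical axis, Nr6a1-/- minus wildtype) of every probe set of the 22 FGF pathway genes that have more than 1 (horizontal axis, ordered by the brightest probe set); orange is the brightest probe set, which stands for the gene, and open circles are the others. All probe sets lay on the same side of 0 for 14 genes, among them Etv5, Spry2, Il17rd and all 8 probe sets of Spred1, whereas those of Fgf14 ran from -0.93 to 0.10.

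Of the 22 members with more than 1 probe set, 14 had all of them on the same side of 0. By limma, 0 of the 44 probe sets that do not stand for a gene passed, while 13 had an unadjusted p under 0.05. The disagreements lay in 7 members within 0.25 of wildtype and in Fgf14.

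Promoter sequence is shown for the 3 members that passed an adjusted p of 0.05 or lower, since Nr6a1 is known as a DNA-binding repressor and its element can be looked for there. Each line gives the 250 bases upstream of the most upstream annotated start, 5′ to 3′ on the gene's strand, from RefSeq promoters of GRCm38.p6: Fgf18 at chr11:33147401-33147650 (minus strand), Spry1 at chr3:37639697-37639946 (plus strand) and Etv5 at chr16:22439571-22439820 (minus strand). Capitals mark the GC box GGGCGG on either strand.
Fgf18: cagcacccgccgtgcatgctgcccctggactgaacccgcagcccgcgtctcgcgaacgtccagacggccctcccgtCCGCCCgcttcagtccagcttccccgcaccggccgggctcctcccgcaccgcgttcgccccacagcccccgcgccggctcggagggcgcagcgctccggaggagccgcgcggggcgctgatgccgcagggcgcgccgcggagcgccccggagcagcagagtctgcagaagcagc
Spry1: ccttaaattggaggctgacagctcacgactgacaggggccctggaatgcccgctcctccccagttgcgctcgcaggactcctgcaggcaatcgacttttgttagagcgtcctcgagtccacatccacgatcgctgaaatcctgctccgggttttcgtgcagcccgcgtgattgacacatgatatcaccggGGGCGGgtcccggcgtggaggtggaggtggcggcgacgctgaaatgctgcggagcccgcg
Etv5: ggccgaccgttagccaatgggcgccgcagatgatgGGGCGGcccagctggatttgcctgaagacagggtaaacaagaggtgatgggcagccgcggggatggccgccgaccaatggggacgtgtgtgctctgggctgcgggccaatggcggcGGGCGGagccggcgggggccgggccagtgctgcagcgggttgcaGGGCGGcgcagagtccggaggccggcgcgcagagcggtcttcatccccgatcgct
The stretches are 77.2%, 62.4% and 71.2% G and C, above the 52.4% that is the median of all 32851 promoters. Fgf18 and Spry1 hold 1 GC box each and Etv5 holds 3, where 32.7% of all promoters hold at least 1.

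Of the 35 members, 25 had a promoter in that set, 33 promoters in all. The GC box was in 20 of the 33, belonging to 16 genes. Members near wildtype such as Fgf10, Fgfr4 and Spred2 are among these, so that it is not particular to the 3 genes shown. The extended element TCAAGGTCA, to which Nr6a1 is known to bind, was found on either strand of 0 of the 33, and of 0.387% of all promoters. The shorter nuclear receptor core AGGTCA, which lies within that element, was in 3 of the 33, those of Fgf6, Fgf7 and Fgf12, against 14% of all promoters. The core CGGAAG of ETS sites was in 7 of the 33, belonging to Dusp6, Spred1, Spred2, Fgf12, Fgf23 and Fgfrl1, against 13.6% of all promoters. Of the 7 feedback genes that were lower without overlap, all but Dusp4 had a promoter in the set, and those of Dusp6 and Spred1 hold it within this window.

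The other genes of the pathway were taken from 3 lists, and of 59 measured, 39 lay below wildtype with a median of -0.08. By limma, 0 of the 59 were lower and 1 was higher at the adjusted threshold, and 19 were lower and 7 higher at an unadjusted p under 0.05. The 1 that rose was Dusp9, an ERK phosphatase gene on the list of ERK-responsive genes. It read 10.47 and 10.50 in wildtype and 11.54 and 11.60 in mutants, and rose 2.12-fold (adjusted p = 0.0144), opposite to Dusp4 and Dusp6. Its call, too, was lost without any single array. Both mutants lay below both wildtype embryos for 27 of the 59 and above them for 15, where 30.4% and 26.2% of all genes did so. At an unadjusted p under 0.05 the share of all genes was 11.9% in each direction, and among brighter genes, which most of the 59 are, 36.1% had both mutants lower and 15.1% were lower at that p. Dusp9 is X-linked, as are Rps6ka3 and Araf below, and its female wildtype embryo read within 0.05 of the male one.

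On the list of ERK-responsive genes, 13 of 18 lay below wildtype, with a median of -0.09. Ccnd1, which encodes cyclin D1 and drives entry into S phase, was at -0.50 (adjusted p = 0.0522), and Spred3, the third Spred gene, at -0.49 (adjusted p = 0.0874). Ier3, an immediate early gene of stress and growth signals, had a difference of 1.05 without passing (adjusted p = 0.109).

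Of the 23 measured genes for heparan sulphate, its carriers and other FGF-binding or co-receptor proteins, such as the Flrt genes and Kl, 13 lay below wildtype and the median was -0.20. The proteoglycan core proteins Gpc1, at -0.58 (adjusted p = 0.0678), Sdc3, at -0.49 (adjusted p = 0.0805), and Sdc1, at -0.41 (adjusted p = 0.0864), had the lowest p-values and did not pass. The receptor adaptors and the ERK cascade had the median nearest to 0 of these 3 lists, 13 of 18 below wildtype with a median of -0.04. Rps6ka3, a kinase activated by ERK, was at -0.54 (adjusted p = 0.0869), Araf, a RAF kinase, at 0.21 (adjusted p = 0.187) and Plcg1, a phospholipase that FGF receptors bind, at -0.20 (adjusted p = 0.219).

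**Figure D4:**
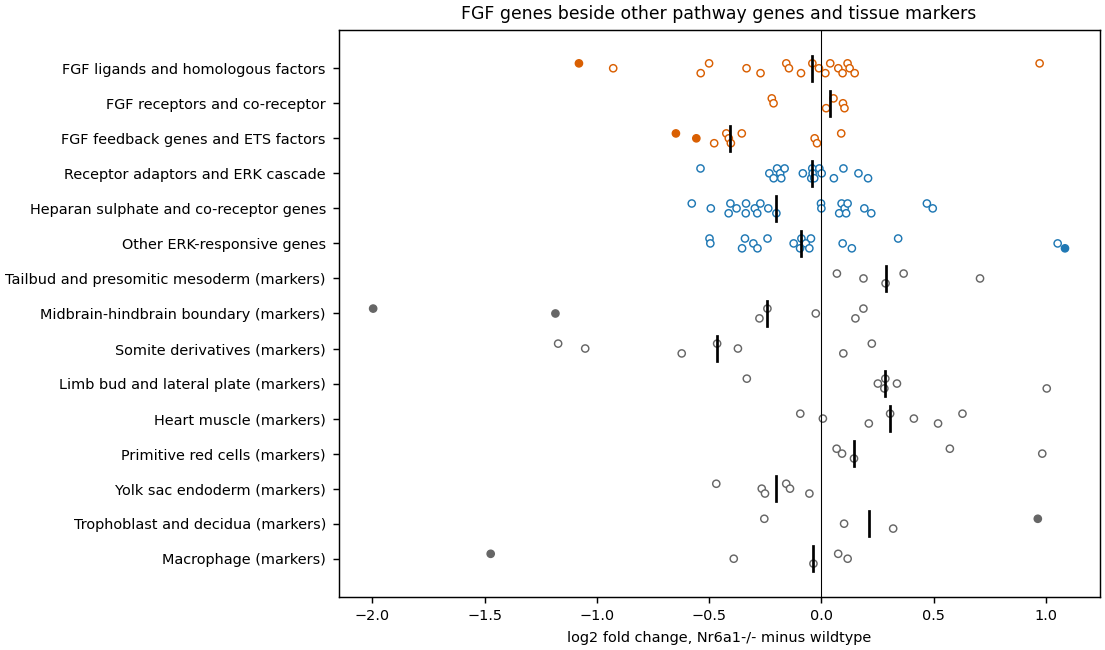
Points are single measured genes, placed on the horizontal axis by the log2 fold change of Nr6a1-/- over wildtype, for the FGF groups (orange), the other pathway lists (blue) and marker lists of tissues a whole embryo holds (grey), with list medians as black bars and filled points for an adjusted p of 0.05 or lower. The FGF feedback median of -0.41 lies below those of the 3 other pathway lists and above the somite median of -0.46, and the boundary median is -0.24 and the tailbud median 0.29.

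Markers of the tissues in which these genes are used were read beside them. All 5 measured tailbud and presomitic mesoderm markers lay above wildtype, with a mean signal of 8.17 and 8.32 in the wildtype embryos and of 8.48 and 8.65 in the mutants. The highest was Tbx6, a regulator of presomitic mesoderm, at 0.71 (adjusted p = 0.0535). By limma 0 of the 5 passed, 2 had an unadjusted p under 0.05, and for 3 both mutants lay above both wildtype embryos. Of all genes, 11.9% were higher at that p and 26.2% had both mutants above both wildtype embryos. The brachyury gene T was not measured by a probe set of its own.

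Of 7 midbrain-hindbrain boundary markers, 5 lay below wildtype, with mean signals of 7.35 and 7.36 in wildtype and 6.82 and 6.93 in mutants. Among these 5, the groups overlap for Pax5, at -0.02, and for En1, at -0.28. En1 was dim, at 4.31 to 4.87 on the arrays. Pax2 was not measured by a probe set of its own. En2, a boundary homeobox gene, fell 3.99-fold (adjusted p = 0.00920) and Pax8 2.27-fold (adjusted p = 0.0133), whereas Gbx2 at 0.15 and Otx2 at 0.19 lay above. Somite markers were below wildtype for 5 of 7, with a median of -0.46 and mean signals of 7.96 and 7.66 in wildtype and 7.43 and 7.23 in mutants. Meox1, an early somite homeobox gene, was at -0.62. By limma 0 somite markers passed, and at an unadjusted p under 0.05 there were 4 below and 1 above wildtype, against 11.9% of all genes in each direction. The part of these tissues in the values of Fgf18, Fgf17 and the feedback genes was not tested.

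Limb and lateral plate markers lay above wildtype for 5 of 6, with the hindlimb gene Tbx4 highest at 1.00 without passing (mean signals 8.72 and 8.91 in wildtype, 9.08 and 9.16 in mutants). The wildtype embryos were far apart for Tbx4, at 7.80 and 8.71, with the mutants at 9.12 and 9.40. Heart muscle markers lay above for 6 of 7 (11.28 and 11.49 against 11.72 and 11.62), and primitive red cell markers for 5 of 5 (12.91 and 13.05 against 13.42 and 13.29). Yolk sac endoderm markers lay below for 6 of 6 (13.38 and 13.30 against 13.18 and 13.05). Limma passed 0 genes of these 4 lists, and 13 had an unadjusted p under 0.05, against 11.9% of all genes in each direction.

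Of 4 trophoblast and decidua markers, 3 lay above wildtype and 1 below. Plac1 rose 1.95-fold (adjusted p = 0.0378), and Ascl2 was at 0.32 with both mutants above both wildtype embryos (adjusted p = 0.169). Prl8a2 was at -0.25, and its groups overlap. The defining trophoblast gene Tpbpa read 3.98 to 4.32 on the 4 arrays, near the bottom of the scale. The list means were 6.52 and 6.40 in wildtype and 6.72 and 6.78 in mutants. Of 5 macrophage markers, Fcgr3 fell 2.78-fold (adjusted p = 0.0305), and Tyrobp was at -0.39 with both mutants below both wildtype embryos (adjusted p = 0.109), while Csf1r, Cx3cr1 and Adgre1 were within 0.12 of wildtype, with list means of 6.69 and 6.67 in wildtype and 6.33 and 6.35 in mutants. The part of other cell types in the FGF values was not tested.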

How the data were processed

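RNA from 4 whole embryos was hybridised to Affymetrix whole-genome mouse arrays, 1 per embryo. The authors deposited log2 signals made by RMA, a method that corrects background, equalises array distributions and summarises probe sets, so that a shift of most transcripts together is removed. The version of RMA is not given in the sources used here. Genotypes were compared over 45037 non-control probe sets with limma 3.58.1 in R 4.3.3 (lmFit, eBayes, genotype as the only term, Benjamini-Hochberg over all of them), with the study's thresholds. With 2 arrays per group an exact two-sided permutation p cannot go below 0.333, so that calls rest on the spread limma shares (prior SD 0.0849, 3.16 prior degrees of freedom), and the number of arrays limits the precision. The methods describe RNA from each embryo, so replicates were taken as embryos. The members, lists and tests were chosen with earlier results of these data known, and list counts and medians are descriptions. All measured members and, of the other lists, genes that passed and up to 3 with the smallest p were named, and of the markers those that passed and defining ones at low signal (Tpbpa). Meox1, Otx2, Gbx2, En1, Pax5, Tbx4, Tbx6, Ascl2, Prl8a2, Csf1r, Cx3cr1, Adgre1 and Tyrobp were added after their values were seen. Alternatives were the replicate block, each array left out, brighter probe sets (mean signal of at least 6.84, the median), repeated quantile normalisation, median centring, an intensity trend and the mean over the probe sets of a gene. Medians by role were added after seeing the data. The procedure was tested on simulated data. Symbols were checked against RefSeq of GRCm38.p6, which changed 0.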

Additional observations from a re-analysis of the deposited data

How the results depend on the processing

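With 2 arrays per genotype the counts depend on every array. With the replicate block, 0 members were called and 0 passed an adjusted p of 0.05 (14 at an unadjusted p under 0.05 in limma), as did 0 of the 59 other pathway genes (22 unadjusted); a shared number is the only link between such embryos, whose deviations had a correlation of 0.06. Leaving out each array gave 0 to 0 called members, 0 to 0 passing (13 to 15 unadjusted) and 0 to 0 other pathway genes (16 to 22 unadjusted), from fewer samples by construction. Members passing numbered 10 among brighter probe sets and 11 with an intensity trend. Other pathway genes passing numbered 11 and 12 there, 2 with repeated quantile normalisation, 2 with median centring and 5 as probe set means, against 1; the cause was not tested. Over all probe sets, 439 passed, 0 with the replicate block (8358 unadjusted) and 0 to 9 with an array left out (5241 to 7244 unadjusted).

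The median of all members ran from -0.15 to -0.071 with 1 array left out and was -0.22 among the 23 bright ones. The feedback median ran from -0.43 to -0.35 and was -0.32 as probe set means. Fgf18 was called in each setting except the block (adjusted p = 0.160) and the left-out arrays. Among brighter probe sets it was kept only through its wildtype values, so that the call in that setting adds no support.

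Members near wildtype changed sign. With 1 array left out, Fgf8 ran from -0.050 to 0.086, Fgf6 from -0.13 to 0.11, Fgf7 from -0.056 to 0.29, Fgf10 from -0.38 to 0.19, Fgf16 from -0.088 to 0.24, Fgf23 from -0.21 to 0.29, Klb from -0.064 to 0.17, Spred2 from -0.084 to 0.046, Spry4 from -0.15 to 0.088 and Etv4 from -0.15 to 0.32. As probe set means, Fgf7 was at -0.030, Fgfr3 at 0.011, Klb at -0.11, Spred2 at 0.047 and Spry4 at 0.023. Repeated quantile normalisation put Fgf6 at 0.0033 and Spred2 at 0.0068, and median centring put Fgf8 at -0.0039 and Fgfr4 at -0.00050.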
